A study of Mus musculus with 12 samples.

Results

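Obstructed and normal kidneys of wild-type mice were compared across putative noncoding transcripts. The comparison takes 4 of the series' 12 libraries, chosen by their source labels: 2 from wild-type (WT) kidneys with unilateral ureteral obstruction (UUO) and 2 from normal WT kidneys. In the UUO group the left ureter was tied off and the obstructed kidney was taken on day 5; the normal kidneys are labelled untreated. All mice are given as C57BL/6J. The labels' protocol speaks of groups of 8 UUO mice of both sexes weighing 22 to 25 g, and of sham-operated controls, but it does not say which mice gave the 4 libraries, their sex, their age or whether the normal mice had a sham operation. The other 8 libraries come from WT mice with anti-glomerular-basement-membrane (antiGBM) nephritis and from Smad3 knockout (KO) mice in the same 3 states. For the nephritis the protocol gives 60 μg of a sheep globulin per g of mouse, and day 10. These 8 libraries enter the model to estimate the spread, and serve for comparisons near the end. Of 42452 transcripts in the tables, 40859 had a read in at least 1 of the 4 WT libraries, and 24816 had enough reads to be tested.

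Obstruction of the ureter raises pressure in the kidney's tubules. Over the following days tubular epithelium is injured and lost, leukocytes enter, and fibroblasts lay down matrix under TGF-β signalling, which Smad3 carries to the nucleus. The model is a standard one for kidney fibrosis because it has a fixed start and needs no toxin. Long noncoding RNAs are transcripts that encode no protein; some hold microRNA hairpins or small nucleolar RNAs, and others have no described role. The transcripts here are known by running numbers in the tables and, for those numbered ncRNA_aligned, by their best match in sequence databases. Those numbered ncRNA_predict have no match. The transcripts are listed as putative noncoding ones, and collagens, Smad3 and the usual marker genes of kidney cells were not analysed here. Some of the entries they match lie in exons of protein-coding genes, as given below. A change need not be that of a noncoding RNA. In whole-kidney RNA, fewer cells of a type and less RNA per cell cannot be told apart.

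The 4 libraries differed in depth and makeup. Their reads on the listed transcripts came to 6171868 and 6263666 in WT normal 1 and 2, and to 4595261 and 7342937 in WT UUO 1 and 2. WT UUO 1 covered its transcripts less broadly than its read number allows: the bases covered, as a ratio to those expected had the reads fallen at random, were 0.447, against 0.757 to 0.911 in the other 3. A 290-base transcript held 16.5% of its reads, against 1.70% to 2.98% in the others. Across transcripts the log2 levels of the 2 normal libraries correlated at 0.963 and those of the 2 UUO libraries at 0.831. Levels are given as CPM, read counts divided by a library size that is scaled so that most transcripts balance between libraries (TMM scaling). Folds are edgeR log2 fold changes with a standard error (SE). The SE was worked back from the test, as the absolute log2 change over the square root of edgeR's F statistic. A transcript was called where edgeR's quasi-likelihood test gave an adjusted p under 0.05. The labels do not say that the libraries come from separate mice, so the p-values measure only the spread between these samples.

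Obstruction went with higher levels of 169 transcripts and lower levels of 431. Together these 600 were 2.42% of the 24816 tested, with 0.681% called higher and 1.74% called lower. The UUO and normal libraries did not overlap in any of the 600; among all tested transcripts 31% lay higher and 23.5% lower in both UUO libraries than in both normal ones. The called falls started from higher levels in normal kidney than the called rises. The choice by call favours this, since a fall can be called only where normal kidney has enough reads. Called-lower transcripts had a median of 116 CPM in normal kidney and 19.2 CPM after obstruction, whereas called-higher ones went from a median of 2.25 to 36.8 CPM. The 431 that fell held 16.3% and 15.8% of the reads of WT normal 1 and 2, and 5.77% and 7.05% of those of WT UUO 1 and 2. The 169 that rose went from 0.202% and 0.168% of the reads to 3.13% and 2.56%.

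The share of calls climbed with the level, as the plot of level against change shows. None was called among transcripts with a mean under 1 CPM over all 12 libraries, and of 93 over 1000 CPM 27 were called, each of them lower. Between 100 and 1000 CPM 16 were called higher and 160 lower, of 1244. Between 10 and 100 CPM the numbers were 80 and 157, of 2978, and between 1 and 10 CPM 73 and 87, of 13925. No read at all was left in either UUO library for 18 of the 431 that fell, and 23 of the 169 that rose had no read in either normal library.

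**Figure D1:**
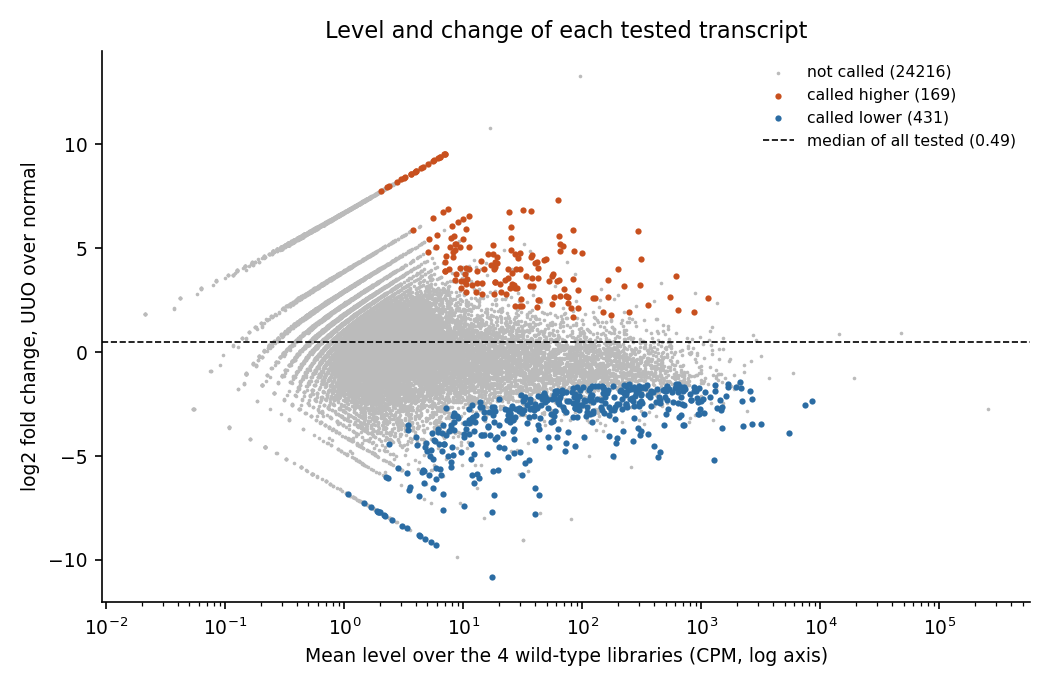
Each point is a tested transcript, with its mean CPM over the 4 WT libraries on a log axis and its log2 fold change of UUO over normal. The 169 called higher (orange) and 431 called lower (blue) lie on both sides of the median of all tested transcripts, 0.49 (dashed), and the most abundant called transcripts are lower ones.

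The count of calls and the balance of directions moved with the processing. The median log2 change of all tested transcripts was 0.49 under TMM, 0.76 with DESeq2 size factors (248 higher, 333 lower) and 1.55 with library size alone (886 higher, 137 lower). Without WT UUO 1 the calls were 76 higher and 97 lower, without WT normal 1 they were 20 and 118, without WT normal 2 they were 18 and 117, and without KO UUO 1 or 2 they were 343 and 843 or 361 and 852. The set of 9 libraries of higher breadth leaves out WT UUO 1, KO UUO 1 and KO antiGBM 1. Each of those groups then keeps 1 library, and the spread is estimated from the other groups. In that fit the median log2 change was 0.43. In each of the 12 fits without 1 library, 77 of the 600 were called, 13 higher and 64 lower.

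The 10 matched transcripts that rose most, and the 10 below that fell most, were chosen among calls whose groups did not overlap. The 10 rises had at most 53 reads in a normal library, and levels between 8.48 and 606 CPM after obstruction. Of these, ncRNA_aligned_943 was the most abundant after obstruction; it matches a region with a conserved RNA fold predicted by EvoFold. Its level was 8.98 and 11.5 CPM in the normal libraries and 606 and 550 CPM in the UUO libraries, a log2 fold change of 5.82 ± 0.60 (SE, adjusted p = 1.51e-05 by edgeR). Both UUO libraries lay far above both normal ones and close to each other. Of its 2643 bases the normal libraries covered 60.5% and 72.4% and the UUO libraries 93.3% and 98.4%.

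Several rises were of transcripts matched to full-length cDNAs described as noncoding. The cDNA AK080028 (ncRNA_aligned_858) had 2.14 and 3.04 CPM in normal kidney and 82.5 and 165 CPM after obstruction, log2 5.57 ± 0.72 (adjusted p = 0.000127 by edgeR). AK080205 (ncRNA_aligned_7825) had no read in WT normal 1, 1.30 CPM in WT normal 2, and 43.1 and 103 CPM in the UUO libraries, log2 6.77 ± 1.14 (adjusted p = 0.00247 by edgeR). Groups did not overlap in either case, and in both WT UUO 2 was the higher of the pair. AK089314 matched 2 of the 10: ncRNA_aligned_3314 went from 5.35 and 1.52 to 80.3 and 171 CPM, and ncRNA_aligned_3312 from 0.428 and 0.434 to 45.9 and 50.3 CPM. They share a cDNA, so they are not separate genes by this evidence. The transcript ncRNA_aligned_967, matched to a mouse lncRNA entry, went from 0.214 and 1.30 to 51.6 and 195 CPM.

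A further 3 of the 10 were cDNA matches. AK008079 (ncRNA_aligned_1008) went from 0.428 and 0.650 to 58.9 and 66.4 CPM, with 4.51% and 9.79% of its 2727 bases covered in normal kidney and 61.7% and 76.4% after obstruction. AK165307 (ncRNA_aligned_10642) had 1 read in each normal library, and 35.8 and 8.48 CPM in the UUO libraries; here WT UUO 1 was the higher. AK029805 (ncRNA_aligned_1007) went from 1.71 and 0.434 to 34.1 and 64.3 CPM. The calls of 5 of the 10 (ncRNA_aligned_943, ncRNA_aligned_858, ncRNA_aligned_7825, ncRNA_aligned_3314 and ncRNA_aligned_2317, below) held in all 12 fits without 1 library. Without WT normal 1 those of ncRNA_aligned_967, ncRNA_aligned_1008, ncRNA_aligned_3312 and ncRNA_aligned_10642 ended (adjusted p between 0.0570 and 0.224), without WT normal 2 those of ncRNA_aligned_1007 and the last 3 (0.0513 to 0.219), and without WT UUO 1 that of ncRNA_aligned_10642 (0.168). The call of ncRNA_aligned_1008 also ended in the 9 libraries of higher breadth (0.123).

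The deepest falls took transcripts of middling level down to a handful of reads. AK151264 (ncRNA_aligned_2560, 486 bases) had 208 and 115 reads in the normal libraries, 44.5 and 24.9 CPM, and no read in either UUO library. Against a floor of 3 reads over the UUO group, 0.161 CPM, it was at least 215-fold lower (adjusted p = 0.000498 by edgeR). AK020541 (ncRNA_aligned_4910) had 293 and 441 reads in normal kidney and 3 in each UUO library, which is 62.6 and 95.6 against 0.447 and 0.252 CPM. Its log2 change was -7.81 ± 0.81 (adjusted p = 1.51e-05 by edgeR), and the groups did not overlap.

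Other falls were of RNAs that were abundant in normal kidney. AK042638 (ncRNA_aligned_3502) went from 2565 and 2394 to 62.4 and 72.5 CPM, and the mouse lncRNA entry ncRNA_aligned_3629 from 808 and 871 to 21.9 and 29.2 CPM. AK044236 (ncRNA_aligned_3514) went from 327 and 377 to 9.24 and 12.4 CPM, log2 -5.02 ± 0.60 (adjusted p = 7.42e-05 by edgeR). In each the UUO libraries lay near each other and far below both normal ones. The mouse lncRNA entry ncRNA_aligned_6640 went from 88.1 and 84.6 to 0.894 and 0.588 CPM, and AK014162 (ncRNA_aligned_2421) from 84.2 and 53.3 to 2.68 and 1.18 CPM.

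The normal libraries themselves disagreed on AK039394 (ncRNA_aligned_7977), at 22.2 and 99.5 CPM against 0.745 and 1.18 CPM after obstruction. AK050085 (ncRNA_aligned_3756) went from 23.3 and 21.9 to 0.149 and 1.01 CPM, and the EvoFold region ncRNA_aligned_1001 from 24.2 and 23.6 to 0.596 and 0.924 CPM. Of the 10 falls, 6 were called in all 12 fits without 1 library. The exceptions were ncRNA_aligned_7977 without WT normal 2 (adjusted p = 0.0505), ncRNA_aligned_3756 without WT UUO 1 (0.0952), ncRNA_aligned_3502 without WT UUO 1 or 2, and ncRNA_aligned_1001 without any 1 of the 4 WT libraries compared; the highest adjusted p of these was 0.157. That of ncRNA_aligned_1001 was 0.164 in the fit to 9 libraries.

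**Figure D2:**
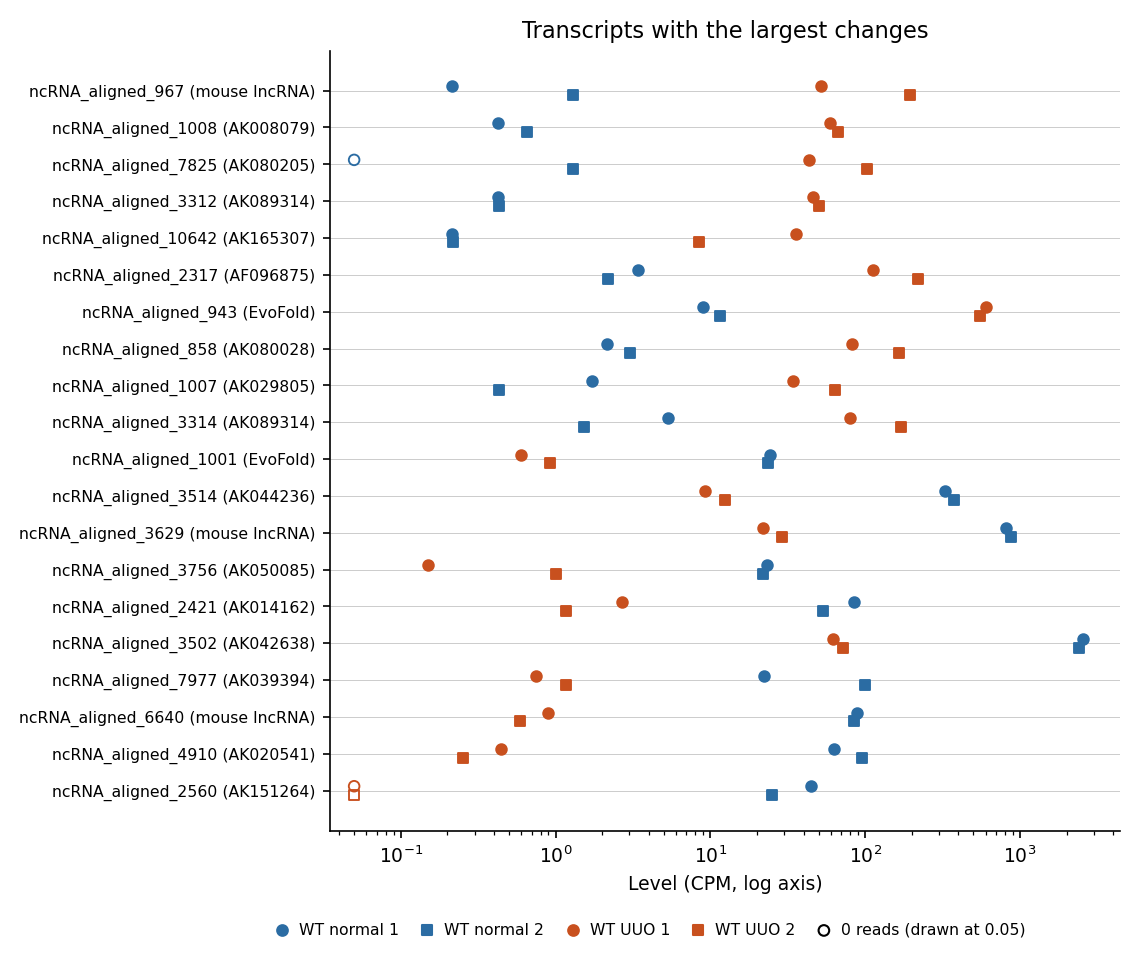
CPM on a log axis of the 10 matched transcripts that rose most and the 10 that fell most, in the 4 WT libraries (blue normal, orange UUO, circle and square the 2 replicates, open symbols 0 reads). The rule that chose these 20 required groups that do not overlap, so the orange symbols stand clear of the blue ones in each row.

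The most abundant called transcripts changed by less. The mouse lncRNA entry ncRNA_aligned_2951 went from 10590 and 10030 to 816 and 565 CPM, log2 -3.90 ± 0.44 (adjusted p = 5.46e-05 by edgeR). In RPKM, the authors' unit of reads corrected for transcript length and library size, it stood at 4769 and 4389 in normal kidney and 708 and 545 after obstruction. The EvoFold region ncRNA_aligned_3702 went from 13370 and 12050 to 2056 and 2368 CPM, and AK038305 (ncRNA_aligned_6240) from 11890 and 16350 to 2033 and 3448 CPM. A further mouse lncRNA entry, ncRNA_aligned_6576, went from 5493 and 6151 to 403 and 654 CPM. The long AK053132 match ncRNA_aligned_4079, of 18784 bases, went from 4714 and 4149 to 1365 and 497 CPM, with the UUO libraries unlike each other.

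Abundant rises were long transcripts. The 14964-base EvoFold match ncRNA_aligned_4213 went from 353 and 283 to 2739 and 1177 CPM, and AK036034 (ncRNA_aligned_6916, 11781 bases) from 99.4 and 79.1 to 1529 and 755 CPM. The latter had a log2 change of 3.68 ± 0.44 (adjusted p = 7.42e-05 by edgeR). AK083502 (ncRNA_aligned_1409) went from 162 and 137 to 1220 and 650 CPM, and the EvoFold matches ncRNA_aligned_3478 and ncRNA_aligned_5378 had log2 changes of 2.01 ± 0.44 and 1.95 ± 0.49. In all 5 WT UUO 1, the library of lower breadth, was the higher of the UUO pair. The calls of ncRNA_aligned_2951, ncRNA_aligned_3702, ncRNA_aligned_6576 and ncRNA_aligned_6916 held in all 12 fits without 1 library. Without WT UUO 1, WT normal 1 or WT normal 2 the calls of the other 4 rises ended (adjusted p between 0.0525 and 0.447), as did that of ncRNA_aligned_6240 without WT UUO 1 or WT normal 2 (0.0826 and 0.0542) and that of ncRNA_aligned_4079 without WT UUO 2 or WT normal 1 (0.0700 and 0.0572). In the 9 libraries of higher breadth ncRNA_aligned_6576 missed the threshold (0.0576).

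By kind of match, falls outnumbered rises in every class with 6 or more calls under TMM, and matched transcripts stood low against predicted ones. That balance rests on the scaling: with library size alone 495 matched and 391 predicted transcripts were called higher, and 88 and 49 lower. In the 9 libraries of higher breadth matched transcripts gave 340 higher and 985 lower, and predicted ones 773 and 587. Matched transcripts gave 98 higher (1.22%) and 305 lower (3.80%) of 8035 tested, predicted ones 71 higher (0.423%) and 126 lower (0.751%) of 16781. The median log2 change of the matched, relative to that of all tested transcripts, was -0.71, and that of the predicted 0.40. Called transcripts were longer than most, with median lengths of 2561 bases (higher) and 2447 bases (lower) against 896 over all tested, and predicted transcripts were short and rare (median 737 bases and 1.45 CPM). The classes differ in level and length, which move with the share of calls; their part in these differences was not tested.

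The larger classes were alike in direction under TMM, as were all tested transcripts together, with 0.681% higher and 1.74% lower. cDNAs described as noncoding gave 53 higher (1.5%) and 120 lower (3.4%) of 3527. cDNAs with no description gave 15 (1.04%) and 72 (5.01%) of 1436, and mouse lncRNA entries 7 (1.01%) and 36 (5.18%) of 695. EvoFold regions gave 17 (1.26%) and 43 (3.19%) of 1346. RNAz, which scores the stability and conservation of RNA folds, gave 2 (0.444%) and 14 (3.11%) of 450. Without WT UUO 1 these numbers were 32 and 35, 8 and 13, 3 and 12, 7 and 9, and 0 and 4. Relative to all tested transcripts the median log2 changes of these classes were -0.50, -0.99, -1.15, -0.74 and -0.76. Mouse lncRNA entries took 39.4% and 43.2% of the reads of the normal libraries and 22.9% and 26.8% of those of the UUO libraries. Most of these reads lay on 2 uncalled transcripts, the 16248-base ncRNA_aligned_3554, with 30.3%, 35.7%, 1.95% and 19.2% of the reads of WT normal 1 and 2 and WT UUO 1 and 2, and the 290-base ncRNA_aligned_7824 given above. Of the reads on all other transcripts the class took 9.15% and 8.95% in normal kidney and 5.41% and 7.49% after obstruction.

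**Figure D3:**
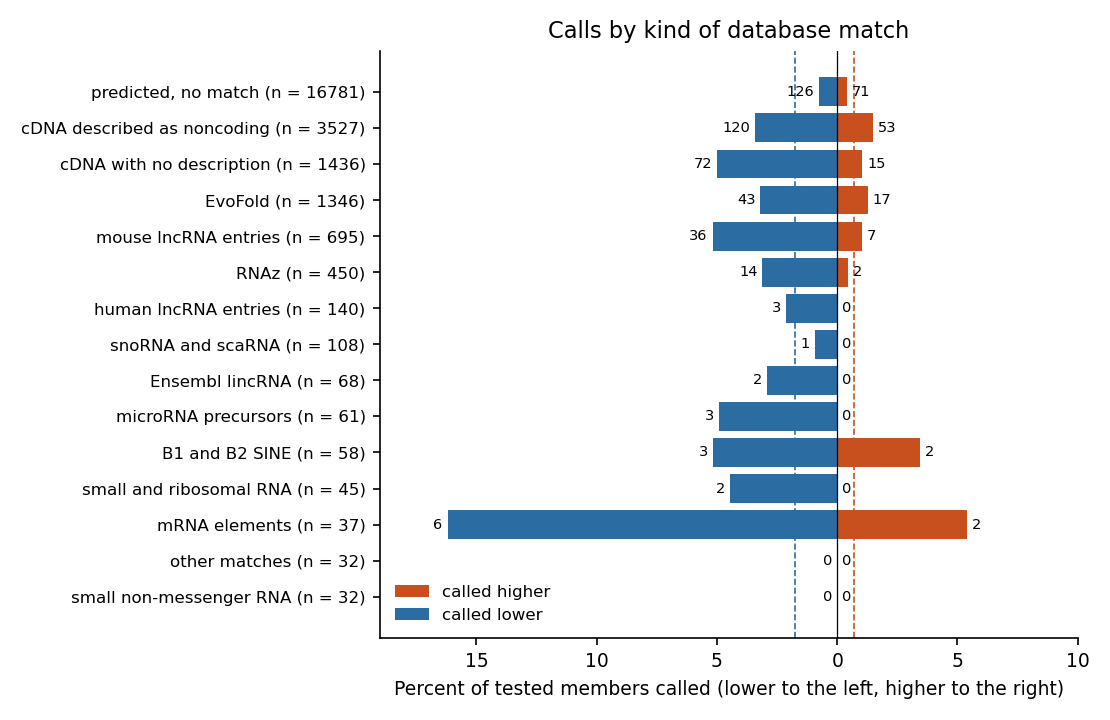
Percent of the tested members of each match class called higher (orange, right) or lower (blue, left) in WT UUO against WT normal, with counts at the bar ends and the percent over all tested transcripts as dashed lines. The mRNA elements, a class of 37, have the longest bars, with 2 higher and 6 lower.

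Within these classes a few further transcripts were large and well covered. AK085582 (ncRNA_aligned_6386) went from 5206 and 4598 to 442 and 445 CPM, log2 -3.47 ± 0.44 (adjusted p = 0.000117 by edgeR). The RNAz regions ncRNA_aligned_7499 and ncRNA_aligned_2255 went from 1423 and 1215 to 111 and 121 CPM and from 2591 and 2512 to 343 and 474 CPM. These 3 calls held in all 12 fits without 1 library, and the UUO libraries lay close together in the first 2. The EvoFold region ncRNA_aligned_1102 went from 15.6 and 15.2 to 0.298 and 0.336 CPM, a call that ended without WT UUO 1 (adjusted p = 0.0596). Of the opposite kind, the RNAz region ncRNA_aligned_5173 had no read in either normal library and 85 and 179 reads in the UUO libraries. Against a floor of 3 reads over the normal group, 0.323 CPM, it was at least 42.9-fold higher (adjusted p = 0.0400 by edgeR), a call that ended in 6 of 12 fits without 1 library: those without any 1 of the 4 WT libraries compared, KO UUO 1 or WT antiGBM 2 (adjusted p up to 0.254).

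Matches to elements of known mRNAs moved in both directions. Such an element is a short stretch, often in an untranslated region, that sets the stability or translation of its mRNA. A match shows reads on a transcript that holds the element. The selenocysteine element matches named below are 803 to 6290 bases long. How much of its mRNA each transcript holds was not tested. Selenocysteine insertion elements sit in selenoprotein mRNAs and let ribosomes read a stop codon as selenocysteine; selenoproteins include peroxidases and deiodinases, and the kidney makes several. The tables list 17 such transcripts, of which 12 were tested; 1 rose (8.33%) and 6 fell (50%), where 0.681% and 1.74% of all tested transcripts did. The median log2 change of the 12 was -2.40, against 0.49 over all tested. These 12 were abundant, with a median of 274 CPM; over all tested transcripts with a mean of 100 to 1000 CPM over the 12 libraries the median log2 change was -0.86, and 160 of 1244 fell.

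The rise was that of ncRNA_aligned_2317 (match AF096875), at 3.42 and 2.17 CPM in normal kidney and 113 and 219 CPM after obstruction, log2 5.88 ± 0.83 (adjusted p = 0.000363 by edgeR). The largest falls in level were those of ncRNA_aligned_2294 (BC086649), from 3587 and 3690 to 512 and 924 CPM, ncRNA_aligned_5109 (AB030643), from 2712 and 2361 to 207 and 530 CPM, and ncRNA_aligned_6494 (AC133494), from 2665 and 2042 to 363 and 357 CPM. The groups did not overlap in any of these. The steepest fall was that of ncRNA_aligned_802 (AL645723), from 157 and 118 to 5.36 and 4.62 CPM. The match AF195142 is shared by ncRNA_aligned_922 and ncRNA_aligned_3688, which fell by 2.90 and 2.87 on the log2 scale.

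Of these 7 the calls of ncRNA_aligned_2317 and ncRNA_aligned_6494 held in all 12 fits without 1 library. Without WT UUO 1 or WT normal 1 those of the other 5 ended, without WT normal 2 those of ncRNA_aligned_922, ncRNA_aligned_2294, ncRNA_aligned_3688 and ncRNA_aligned_5109, and without WT UUO 2 those of ncRNA_aligned_802 and ncRNA_aligned_3688; the highest adjusted p was 0.221. Without WT UUO 1 the 12 gave 1 higher and 1 lower, and in the 9 libraries of higher breadth 1 and 7, where the call of ncRNA_aligned_802 ended (0.225).

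Of the elements of Spi1, c-myc, vimentin, G-CSF, Ctgf and renin only that of Spi1 passed the test. The element of Spi1, whose product PU.1 is a transcription factor of myeloid cells and B cells, went from 3.42 and 3.47 to 44.8 and 50.7 CPM (ncRNA_aligned_3717, log2 3.79 ± 0.90, adjusted p = 0.0250 by edgeR). That call ended without any 1 of the 4 WT libraries compared (adjusted p up to 0.291) and in the 9 libraries of higher breadth (0.208). The internal ribosome entry site of c-myc, a transcription factor of growing cells, stood at 16.5 and 12.4 CPM in normal kidney and 82.5 and 68.3 CPM after obstruction (ncRNA_aligned_683, log2 2.39 ± 0.70, adjusted p = 0.0791 by edgeR and 0.00607 by DESeq2). The element of vimentin, which forms intermediate filaments in mesenchymal cells, stood at 198 and 141 against 347 and 634 CPM (ncRNA_aligned_976, adjusted p = 0.115 by edgeR). In these 3 both UUO libraries lay above both normal ones, as they did for 31% of all tested transcripts.

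The stem-loop of G-CSF, a growth factor for neutrophils, had no read in normal kidney and 12 and 94 reads after obstruction (ncRNA_aligned_11387, adjusted p = 0.151 by edgeR). The CAESAR element of Ctgf, a matricellular protein induced by TGF-β, stood at 131 and 180 against 189 and 235 CPM (ncRNA_aligned_6524, adjusted p = 0.684). That of renin, the enzyme that starts the angiotensin cascade, stood at 220 and 144 against 83.6 and 126 CPM (ncRNA_aligned_2307, log2 -0.80 ± 0.68, adjusted p = 0.609), a direction that turned with library size alone (log2 0.28). The Ctgf groups did not overlap by a small gap, and the renin groups lay close together.

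Cell type markers could be checked only through such matches. Of 6 leukocyte markers 2 were in the tables, the Spi1 element and Mir155, and their summed level was 4.28 and 3.90 CPM in normal kidney and 45.9 and 59.6 CPM after obstruction. Of 7 mesenchymal markers 2 were found by name, the vimentin and Ctgf elements, with sums of 329 and 321 against 537 and 869 CPM. Of 7 markers of kidney epithelium 2 were there, mir-30b and mir-200b, with sums of 55.6 and 61.8 against 74.0 and 70.9 CPM. None of 14 protein-coding markers of tubule, glomerulus, leukocytes or fibroblasts was found. They were looked for only among the names of matched Ensembl genes, and 162 of 182 such matches had a name. The labelled tissue could thus not be checked against its defining genes. The leukocyte and mesenchymal sums were higher in both UUO libraries than in both normal ones, as was the epithelial sum by a smaller step. Among all tested transcripts 31% also lay higher in both UUO libraries. Most of the leukocyte sum after obstruction was the Spi1 element, at 44.8 and 50.7 CPM. The log2 changes of mir-200b (0.45) and mir-30b (0.09) were under the median of all tested transcripts, 0.49. The part of these sums in the calls was not tested.

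MicroRNA precursors are hairpins cut from longer transcripts; the short mature RNA from an arm of the hairpin pairs with target mRNAs through its seed, bases 2 to 8. The libraries were made from the longer RNA, so the levels below are those of long transcripts that match a precursor, not of mature microRNAs. Of 61 tested matches 3 fell (4.92%) and none rose, where 1.74% of all tested transcripts fell and 0.681% rose. Mature sequences from 5 of the microRNA genes below are shown 5′ to 3′ with the seed in capitals, from RefSeq on build GRCm38.p6, to tell the arms and their seeds apart; no seed occurs in more than 1 of them.
miR-135a-5p: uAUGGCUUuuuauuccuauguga
miR-135a-1-3p: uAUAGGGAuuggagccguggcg
miR-147-5p: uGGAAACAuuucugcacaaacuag
miR-155-5p: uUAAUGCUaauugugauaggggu
miR-155-3p: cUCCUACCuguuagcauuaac
miR-125b-5p: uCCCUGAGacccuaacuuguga
miR-125b-1-3p: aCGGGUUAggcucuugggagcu
miR-200b-3p: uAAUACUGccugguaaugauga
miR-200b-5p: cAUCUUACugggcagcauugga

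The mir-135a-1 match ncRNA_aligned_6360, 4267 bases long, stood at 578 and 599 CPM in normal kidney and at 98.2 and 51.6 CPM after obstruction. It fell by 2.98 ± 0.45 on the log2 scale (adjusted p = 0.000765 by edgeR), the groups did not overlap, and the call held in all 12 fits without 1 library. On build NCBIM37 the Mir135a-1 gene lies at chromosome 9, 106056455 to 106056544, plus strand. It is there inside an intron of the lincRNA D030055H07Rik on the same strand and inside an untranslated exon of Glyctk, the glycerate kinase gene, on the opposite strand. No strand setting is recorded, so reads from these overlapping genes cannot be told apart.

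The other 2 falls were of Ensembl microRNA entries that lie in mRNAs. The entry matched by ncRNA_aligned_3500 lies at chromosome 4, 141175340 to 141175404, minus strand, inside an untranslated exon of Slc25a34, a gene of the mitochondrial carrier family. Its level went from 148 and 154 to 28.6 and 17.6 CPM, a call that ended without WT UUO 2 (adjusted p = 0.0533). The entry matched by ncRNA_aligned_5220, AC151602.1, lies at chromosome 7, 52713459 to 52713567, minus strand, inside an untranslated exon of Ftl1, which encodes the ferritin light chain. It stood at 163 and 114 CPM in normal kidney and at 26.2 and 42.3 CPM after obstruction (adjusted p = 0.0484 by edgeR). That call ended in 8 of 12 fits without 1 library, namely those without any 1 of the 4 WT libraries compared, either KO normal library or either WT antiGBM library, with adjusted p up to 0.403.

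Matches to microRNAs known from inflammation were low in normal kidney and did not pass. The Mir147 match ncRNA_aligned_11750 had no read in normal kidney and 10 and 136 reads, 1.49 and 11.4 CPM, after obstruction (adjusted p = 0.0836 by edgeR and 0.00701 by DESeq2). Against the floor of 3 reads over the normal group this is at least 19.99-fold higher. Mir147 lies at chromosome 2, 122466539 to 122466617, plus strand, in an untranslated exon of AA467197, and was picked here after its values were seen, as was mir-125b-1. The match to the Mir155 host, ncRNA_aligned_8024, stood at 0.855 and 0.434 against 1.04 and 8.90 CPM (adjusted p = 0.348), so WT UUO 1 was near the normal libraries. The mir-125b-1 match ncRNA_aligned_7905 stood at 4.28 and 2.60 against 20.4 and 14.9 CPM (adjusted p = 0.161).

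Matches to microRNAs of kidney epithelium moved little. The mir-200b match ncRNA_aligned_7267 stood at 29.9 and 36.4 against 48.4 and 42.2 CPM (log2 0.45 ± 0.53), and the mir-30b match ncRNA_aligned_667 at 25.7 and 25.4 against 25.6 and 28.6 CPM (log2 0.09 ± 0.72). Their differences were within about 1 SE.

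**Figure D4:**
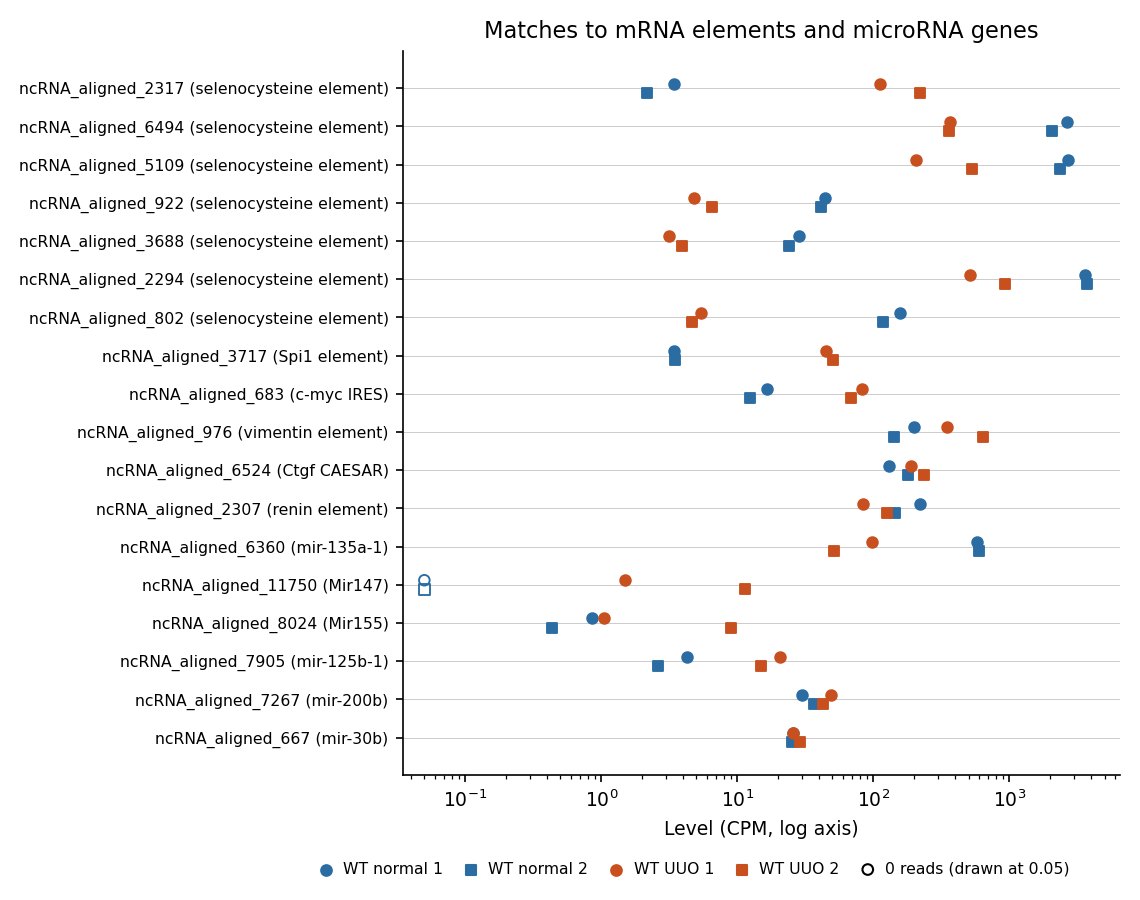
CPM on a log axis of the transcripts matching mRNA elements and microRNA genes in the 4 WT libraries (blue normal, orange UUO, circle and square the 2 replicates, open symbols 0 reads). Among the 7 called selenocysteine element matches only ncRNA_aligned_2317 is higher after obstruction, and the mir-135a-1 match is the only microRNA match drawn that lies clearly lower.

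Of 68 tested Ensembl lincRNAs 2 fell (2.94%) and none rose, where 1.74% of all tested transcripts fell. The Abhd1 transcript, annotated as lincRNA at chromosome 5, 31252439 to 31257464, plus strand, went from 352 and 379 to 73.3 and 118 CPM (ncRNA_aligned_4486, log2 -1.93 ± 0.47, adjusted p = 0.0271 by edgeR). It overlaps exons of Preb on the opposite strand. The lincRNA 1190007F08Rik, at chromosome 4, 153394697 to 153400075, minus strand, overlapping an untranslated exon of Lrrc47 on the other strand, went from 57.5 and 31.0 to 6.11 and 8.40 CPM (ncRNA_aligned_7160, log2 -2.60 ± 0.57). In both the UUO libraries lay below both normal ones.

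Human lncRNA entries gave 3 falls of 140 tested (2.14%), a share near the 1.74% over all tested transcripts: ncRNA_aligned_6502 (X68879) went from 66.5 and 70.5 to 15.1 and 9.32 CPM, ncRNA_aligned_4253 (BC038512) from 534 and 660 to 128 and 197 CPM, and ncRNA_aligned_3427 (U60118) from 50.5 and 56.6 to 15.8 and 6.47 CPM. None of these 5 calls held in all 12 fits without 1 library: without WT normal 1 all 5 ended, without WT normal 2 all but that of 1190007F08Rik, without WT UUO 1 all but that of ncRNA_aligned_3427, without WT UUO 2 the 3 human entries, and without either KO normal library that of ncRNA_aligned_3427, with adjusted p up to 0.309.

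Widely studied lncRNAs were found by name in few cases. Neat1, which builds the nuclear bodies called paraspeckles, stood at 81.5 and 160 CPM in normal kidney and 215 and 536 CPM after obstruction (ncRNA_aligned_3989, log2 1.64 ± 0.74, adjusted p = 0.310 by edgeR). H19, an imprinted fetal RNA, had no read in normal kidney and 10 and 15 reads after obstruction (ncRNA_aligned_2556, adjusted p = 0.329). Snhg12, a host of small nucleolar RNAs, stayed between 3 and 30 reads in each library (ncRNA_aligned_5316). The RNA component of MRP, an RNA-processing enzyme, was tested and not called. Malat1, Meg3, Gas5, Miat, Pvt1, Kcnq1ot1, Dnm3os, Mir17hg and Mir22hg were looked for only among the names of matched Ensembl genes. They were not found there and were not analysed here. Xist (ncRNA_aligned_7784) coats the inactive X chromosome of females. It had 4 and 100 reads in the WT normal libraries and 0 and 20 in the WT UUO libraries. The WT libraries of a group thus differed from each other as much as the WT groups did. In KO mice Xist stood at 24.2 and 1279 CPM in normal, 0.426 and 1.00 CPM in UUO and 93.3 and 993 CPM in antiGBM kidneys. The part of sex in the comparisons here was not tested.

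Matches to repeats were called in both directions, and the calls of small RNA matches were all lower. B1 and B2 SINEs are short interspersed repeats transcribed by RNA polymerase III or carried inside longer transcripts; 2 of 58 tested matches rose (3.45%) and 3 fell (5.17%), where 0.681% and 1.74% of all tested transcripts did. The B2 match ncRNA_aligned_6819 went from 5.35 and 4.34 to 46.0 and 115 CPM (log2 4.05 ± 0.70) and ncRNA_aligned_90 from 37.0 and 32.7 to 156 and 262 CPM, while ncRNA_aligned_7130 went from 3567 and 4648 to 198 and 507 CPM and ncRNA_aligned_5163 from 49.8 and 53.8 to 1.04 and 2.44 CPM. The counted reads are headed as unique in the files, and how reads with several equal places were treated is not given in the sources used here.

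Of 108 tested snoRNA and scaRNA matches 1 fell (0.926%), and of 45 small and ribosomal RNA matches 2 fell (4.44%). None rose in these classes, where 1.74% of all tested transcripts fell and 0.681% rose. The snoRNA ACA15, which guides pseudouridylation, is matched by ncRNA_aligned_6368, at 1015 and 884 against 299 and 350 CPM. An asparagine tRNA is matched by ncRNA_aligned_6546, at 274 and 253 against 38.3 and 59.4 CPM, and a small nuclear RNA by ncRNA_aligned_6548, at 248 and 229 against 27.1 and 68.8 CPM. All 3 transcripts are over 1000 bases, far longer than the RNA they match. Of the 7 named in these repeat and small RNA classes none kept its call in all 12 fits without 1 library: without WT normal 1 or WT normal 2 all but that of ncRNA_aligned_5163 ended, without WT UUO 1 all but those of ncRNA_aligned_90 and ncRNA_aligned_6819, and without WT UUO 2 or either KO normal library that of ncRNA_aligned_6368, with adjusted p between 0.0532 and 0.327.

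Predicted transcripts with no match held some of the largest changes. The 932-base ncRNA_predict_24759 had 2 and 0 reads in normal kidney and 26.2 and 13.4 CPM after obstruction, and ncRNA_predict_18128 went from 0.855 and 0.650 to 58.0 and 40.8 CPM, log2 6.00 ± 1.09 (adjusted p = 0.00344 by edgeR). In the other direction ncRNA_predict_2981 went from 25.9 and 44.2 CPM to 0 and 3 reads, log2 -7.70 ± 1.24 (adjusted p = 0.00163), and ncRNA_predict_6982 from 25.2 and 15.0 CPM to 0 and 2 reads. The abundant ncRNA_predict_5037 went from 866 and 885 to 22.4 and 40.8 CPM. Of 8 predicted transcripts examined only ncRNA_predict_2981 was called in all 12 fits without 1 library. Of those named, the calls of ncRNA_predict_24759 and ncRNA_predict_6982 ended without WT normal 1, WT normal 2 or WT UUO 1, that of ncRNA_predict_6982 also without WT UUO 2, that of ncRNA_predict_18128 without either normal library and that of ncRNA_predict_5037 without WT UUO 1, with adjusted p up to 0.267.

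The same matched cDNA was called more than once in 13 cases, covering 27 of 263 calls with a cDNA. In all but 2 of the 13 the calls went the same way. AK089828 was matched by 3 transcripts that rose (ncRNA_aligned_6712, ncRNA_aligned_7971 and ncRNA_aligned_11744). AK150302 was matched by ncRNA_aligned_6634, which went from 4.06 and 1.73 to 50.7 and 95.7 CPM, and by ncRNA_aligned_7753, which went from 55.8 and 48.1 to 4.32 and 9.99 CPM. These cases were picked after their values were seen.

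The change was next set against that in Smad3 KO mice, with a test of the difference between the effects of obstruction, which share no library. It called 15 transcripts (0.0604%), 4 with the WT effect the more positive (0.0161%) and 11 with it the more negative (0.0443%). The KO UUO libraries were unlike each other. KO UUO 1 had a breadth ratio of 0.285 and 15.7% of its reads on the 290-base transcript, against 0.787 and 2.02% in KO UUO 2. Across transcripts their log2 levels correlated at 0.825. Described here are those of the 15 that are named above. They were named for their change in WT, which is a term of the difference tested. That choice favours a larger effect in WT, which 166 of the 169 called higher and 425 of the 431 called lower had. The smallest adjusted p belonged to 3 transcripts that fell in WT. AK020541 (ncRNA_aligned_4910), cited above for its fall, stood at 25.8 and 31.3 CPM in KO normal and 15.9 and 33.1 CPM in KO UUO, and its effects differed by -7.59 ± 0.95 on the log2 scale (adjusted p = 0.000461 by edgeR). The 2 KO groups overlapped.

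For the other 2 of these 3 the KO libraries started low. AK014162 (ncRNA_aligned_2421) stood at 0.609 and 1.14 CPM in KO normal and 19.4 and 14.2 CPM in KO UUO. The mouse lncRNA entry ncRNA_aligned_6640 had no read in KO normal and 0.532 and 1.17 CPM in KO UUO. Both fell in WT from a normal level above 50 CPM, and their difference of effects had adjusted p = 0.000461 each. The fitted size of the difference for ncRNA_aligned_6640 depends on the prior count, since KO normal is at 0, and is not given. These 3 differences held in all 12 fits without 1 library, and that of ncRNA_aligned_4910 ended under limma voom (adjusted p = 0.0587).

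The EvoFold region ncRNA_aligned_943 went from 18.5 and 42.9 CPM in KO normal to 124 and 121 CPM in KO UUO, a smaller step than its WT one by 3.82 ± 0.72 on the log2 scale (adjusted p = 0.0391). ncRNA_aligned_6576 stood at 2671 and 995 against 2477 and 2738 CPM in KO, a difference of effects of -3.97 ± 0.72 (adjusted p = 0.0461). Both differences ended without WT UUO 1, WT UUO 2, WT normal 1, WT normal 2 or KO normal 2, and the second also without either KO UUO library, with adjusted p up to 0.388. The second also ended under DESeq2 size factors (0.0892), library size alone (0.356), limma voom (0.477) and in the 9 libraries of higher breadth (0.194), among others, and the first under limma on log2 RPKM (0.0722).

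Obstruction was also compared directly with the nephritis in WT mice, without the normal libraries. The UUO kidneys are from day 5 and the antiGBM kidneys from day 10, so kind of injury and time cannot be told apart. Of 24816 tested, 24 were called (0.0967%), 15 higher in UUO (0.0604%) and 9 lower (0.0363%). The 6 described were named above for their change in WT UUO, a choice that favours a difference in the same direction here. Of the calls against normal, 165 of 169 higher and 422 of 431 lower lay further that way in UUO than in antiGBM. AK020541 (ncRNA_aligned_4910) was lower in UUO, with 24.3 and 12.3 CPM in antiGBM kidneys against 0.447 and 0.252 CPM, log2 -5.70 ± 0.75 (adjusted p = 0.00125 by edgeR), and so was AK044236 (ncRNA_aligned_3514), with 113 and 136 against 9.24 and 12.4 CPM. Higher in UUO were the selenocysteine element match ncRNA_aligned_2317, with 12.7 and 4.14 CPM in antiGBM kidneys, AK089314 (ncRNA_aligned_3314) with 9.52 and 13.5 CPM, AK083502 (ncRNA_aligned_1409) with 163 and 121 CPM and the B2 match ncRNA_aligned_6819 with 5.74 and 5.88 CPM. In each of these 6 the UUO and antiGBM libraries did not overlap. They were chosen among the calls of this comparison, and the share over all tested transcripts was not computed.

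The call of ncRNA_aligned_4910 against antiGBM held in all 12 fits without 1 library and ended under limma voom (adjusted p = 0.0834). That of ncRNA_aligned_3514 ended without WT UUO 1 (adjusted p = 0.135). Those of the 4 higher ended without WT antiGBM 1 or 2, that of ncRNA_aligned_1409 also without WT UUO 1, those of ncRNA_aligned_2317, ncRNA_aligned_3314 and ncRNA_aligned_6819 also without WT UUO 2, and those of ncRNA_aligned_1409, ncRNA_aligned_3314 and ncRNA_aligned_6819 without either normal library, with adjusted p up to 0.539.

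**Figure D5:**
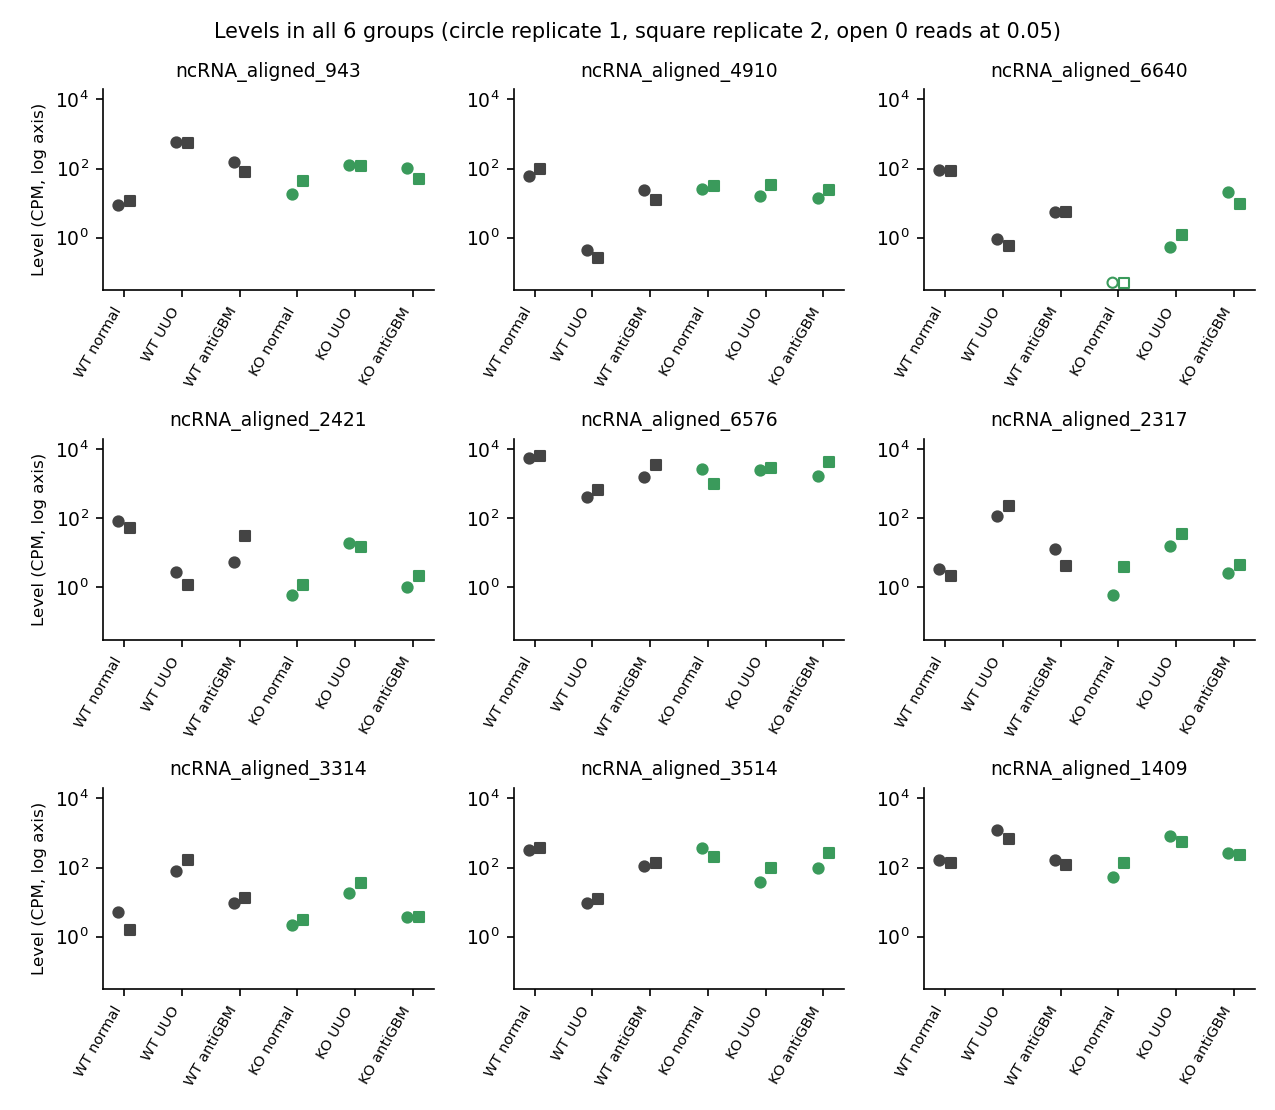
CPM on a log axis of 9 transcripts in all 12 libraries (dark WT, green Smad3 KO, circle replicate 1, square replicate 2, open symbols 0 reads). In WT UUO ncRNA_aligned_4910 lies below every other library, and ncRNA_aligned_943, ncRNA_aligned_2317 and ncRNA_aligned_3314 lie above every other library.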

How the data were processed

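RNA of over 150 bases from rRNA-depleted kidney RNA was sequenced, per the labels' protocols. Bowtie 0.12.7 and build mm9 are named in the submitters' processing notes; strand, multi-mapping and trimming settings are not given in the sources used here. Each deposited table gives per transcript, per the file headers, the count of unique reads, the percent of bases covered, the authors' RPKM and a mean coverage depth. A transcript not listed in a library was taken as 0 reads. The deposited RPKM equalled count, length and library total combined, with a largest relative deviation of 1.754e-14.

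Groups follow the source labels. Counts of 12 libraries were filtered with filterByExpr, scaled by TMM and fitted with edgeR 4.0.16 (quasi-likelihood, robust, R 4.3.3), with Benjamini-Hochberg adjustment over 24816 transcripts and a threshold of 0.05. Contrasts were WT UUO against WT normal, the WT against the KO effect of UUO, and WT UUO against WT antiGBM. Simulated counts were used to test the edgeR fit of WT UUO against WT normal, and not the other contrasts or methods. Alternatives used DESeq2 1.42.0, limma 3.58.1 (on log2 of the authors' RPKM plus 1, and voom), other scalings, filters and sets of libraries. With 2 libraries a group an exact permutation test cannot go below 0.3333. WT libraries held 4595261 to 7342937 counted reads; a group with no read is given a floor of 3 reads. Floors cover counting error only.

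The transcripts named are those called with the largest log2 change, groups that do not overlap and a mean of at least 10 CPM over the 4 libraries (10 matched and 2 predicted in each direction, small RNA genes left out), the 5 called in each direction with the highest mean, the leading called members of each match class, and a list of elements, microRNAs and lncRNAs; exceptions are marked. Members and lists were chosen with earlier results of these data known. MicroRNA sequences are RefSeq's on GRCm38.p6; places are from the Ensembl annotation on NCBIM37.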

Additional observations from a re-analysis of the deposited data

Results flagged for a closer look

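The effect of obstruction differed between WT and Smad3 KO kidneys, by a test of the difference itself, for 5 transcripts described above. They were named for their change in WT, which is a term of that difference. Adjusted p by edgeR was 0.000461 for AK020541 (ncRNA_aligned_4910), 0.000461 for AK014162 (ncRNA_aligned_2421) and 0.000461 for the mouse lncRNA entry ncRNA_aligned_6640, each of which fell in WT. For AK020541 the KO normal and KO UUO libraries overlapped, at 25.8 and 31.3 against 15.9 and 33.1 CPM. For ncRNA_aligned_6640 the genotypes already stood apart in normal kidney, at 88.1 and 84.6 CPM in WT and no read in KO. It was 0.0391 for the EvoFold region ncRNA_aligned_943, which rose in WT, and 0.0461 for the mouse lncRNA entry ncRNA_aligned_6576, which fell in WT. These last 2 differences ended without any 1 of the 4 WT libraries compared, with adjusted p up to 0.388.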

How the results depend on the processing

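No paired analysis was possible because the replicate numbers only follow the order of the records and tie no WT library to another. The 600 calls in WT UUO against WT normal became 1023 with library size alone, 1046 with no filter, 1110 with only the groups compared, 2685 in the 9 libraries of higher breadth, 1408 with DESeq2, 2583 with limma on log2 RPKM and 2308 with limma voom, and 135 to 1213 without 1 library. In the same order the 169 higher became 886, 277, 334, 1113, 669, 2340 and 1361, and 18 to 361 without 1 library; the 431 lower became 137, 769, 776, 1572, 739, 243 and 947, and 97 to 852. The 15 differences between WT and KO effects became 28 with library size alone, 133 with no filter, 414 in the 9 libraries, 142 with DESeq2 and 44 with limma on log2 RPKM, and 3 to 44 without 1 library. The 24 between UUO and antiGBM became 42 with DESeq2 size factors, 59, 163, 43, 320, 2.1e+02, 282 and 163 in the order first given, and 5 to 80 without 1 library. The cause of these moves was not tested; the fits without a library also have fewer samples, and a lone library left in a group is assumed to vary like the others.

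Among the 70 named calls none changed direction. Without WT UUO 1, WT UUO 2, WT normal 1 and WT normal 2 in turn, 38, 17, 39 and 37 of them ended. With library size alone 19 ended, with limma on log2 RPKM 21, in the 9 libraries 5, with DESeq2 size factors 4, with limma voom 2 and with DESeq2 1. Direction turned for 2 transcripts that were not called: the renin element (ncRNA_aligned_2307), to log2 0.28 with library size alone and 0.24 with limma on log2 RPKM, and Xist (ncRNA_aligned_7784), to 0.10 without WT normal 2 (lowest value without a library -9.08, where the only UUO library left had no read). Of the 600 calls, 501 were made again with DESeq2 size factors, 305 with library size alone, 589 with DESeq2, 586 with limma voom and 326 with limma on log2 RPKM. In the edgeR fit to all 12 libraries no transcript with a mean under 1 CPM was called; the other fits were not split by level.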

Other observations

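Some of the widest gaps between groups did not pass the test, and are given here as values picked after they were seen. The transcript ncRNA_aligned_7949, matched to a cDNA described as noncoding, had no read in either normal library and 53.8 and 326 CPM in the UUO libraries (adjusted p = 0.151 by edgeR). The predicted transcript ncRNA_predict_3642 had no read in normal kidney and 34.0 and 33.2 CPM after obstruction (adjusted p = 0.0521). In the other direction the snoRNA match ncRNA_aligned_8460 stood at 123 and 198 CPM in normal kidney and at 0.596 and 0.588 CPM after obstruction (adjusted p = 0.253). The mouse lncRNA entry ncRNA_aligned_6507 stood at 120 and 6.50 CPM in the normal libraries, so these differed from each other, and at 0 and 0.168 CPM in the UUO libraries (adjusted p = 0.208).

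AK143285, like AK150302, was matched by a transcript that rose and one that fell. The first, ncRNA_aligned_1254, went from 39.6 and 40.5 to 96.7 and 159 CPM (adjusted p = 0.0497 by edgeR), and the second, ncRNA_aligned_6530, from 138 and 120 to 24.9 and 26.3 CPM (adjusted p = 0.0139). Whether the 2 transcripts of each cDNA come from 1 gene was not tested.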
